A study of Mus musculus with 7 samples.

Results

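Label 13 is the cell cluster proposed as Cajal-Retzius cells in single-cell RNA profiles of the developing mouse dorsal forebrain. Its members are the cells that carry the number 13 among the 19 numeric cluster labels deposited with the data, 220 of 10261 cells (2.14%, exact Clopper-Pearson 95% interval 1.87 to 2.44). All samples were dorsal forebrain tissue of embryos of CD-1 mice, an outbred stock, with no treatment and no altered gene. The stages were embryonic day (E) 10.5, E12.5, E14.5, E15.5, E16.5 and E18.5, with 1 sample each except E14.5, which had 2. Drop-seq was used, a droplet method in which each captured mRNA molecule is tagged with a cell barcode and with a unique molecular identifier (UMI). The labels do not say how many embryos or litters went into a sample. The p-values below reflect how far the samples after E10.5 scatter, and that scatter may be technical. In the comparisons with E10.5 it also includes differences between the later stages. E10.5 is a single sample, so its stage and its sample cannot be told apart. Clusters were drawn from the expression of the same cells, so levels in label 13 against other cells are given as a description, without a test. Changes with stage inside label 13 were tested.

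Cajal-Retzius cells are early-born neurons of the marginal zone, the outermost layer of the embryonic cortex. They arise at the borders of the cortical sheet, among them the cortical hem, and spread under the pial surface. They are known for secreting reelin, a large extracellular glycoprotein that binds the receptors Vldlr and Lrp8 on migrating neurons, acts through the adaptor Dab1 and guides how cortical layers form. In the mouse most of them die after birth.

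E10.5 gave 66 cells of the label, E12.5 gave 23, the E14.5 samples gave 54 and 10, E15.5 gave 25, E16.5 gave 6 and E18.5 gave 36. Among the cells of its sample the label had a share of 5.63% at E10.5 (4.38 to 7.11) and 0.862% at E12.5 (0.547 to 1.29). It was 1.67% in the larger E14.5 sample and 1.97% in the second. E15.5 had 2.46% (1.60 to 3.62), E16.5 had 1.55% (0.571 to 3.34), and E18.5 reached 2.82% (1.98 to 3.88). These intervals cover counting error only, and since the genes of the label themselves differed with stage, the shares are not compared as numbers of 1 cell type. Cells of the label were found in 12 of 12 libraries. The 2 libraries of E18.5 differed, with 30 of 835 cells (3.59%) and 6 of 443 cells (1.35%). Label 13 cells held 758085 UMIs in all, between 44427 at E16.5 and 222821 at E10.5 per sample, and a median of 2563.5 UMIs per cell against 1961 in other cells. No label 13 cell shared its barcode with a cell of another library, and none was among the 95 doublet calls.

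The 6 markers checked against the label were Reln (reelin), the p53-family transcription factor Trp73, the LIM-homeodomain factor Lhx1, the secreted neurotrophic factor Ndnf, the calcium channel subunit Cacna2d2 and the carbonic anhydrase-related protein Car10. Over all cells, each had its highest level in label 13 among the 19 labels. In counts per 1e6 UMIs (CPM), Reln had 1450 CPM in label 13 against 34.7 CPM in label 8, the next highest. Trp73 had 160 CPM against 1.55 CPM in label 15, and 16 of the other labels had no UMI of it. Lhx1 had 495 CPM against 9.02 CPM in label 7, Ndnf 546 CPM against 12.6 CPM in label 6, Cacna2d2 645 CPM against 42.8 CPM in label 8, and Car10 129 CPM against 4.04 CPM in label 9. At an equal depth of 1000 UMIs per cell, 100 of 197 label 13 cells (50.8%) held at least 2 of the 6 markers, against 2 of 8281 other cells (0.0241%). Thinning left out 23 label 13 cells with fewer UMIs.

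The stages differed in this check. At 1000 UMIs, 96 of 135 label 13 cells of the later stages, E12.5 to E18.5, held at least 2 markers (71.1%, 62.7 to 78.6), against 4 of 62 at E10.5 (6.45%, 1.79 to 15.7). At E10.5, 38 of the 62 cells held none of the 6. A UMI of Reln was found without thinning in 131 of 154 later cells (85.1%), against 9 of 66 E10.5 cells (13.6%), while other cells had one in 119 of 8935 at the later stages (1.33%) and in 7 of 1106 at E10.5 (0.633%). The median depth was 2368 UMIs in later label 13 cells and 2783 in those of E10.5, so the E10.5 cells were not the shallower ones. The name therefore rests on the later cells, and the E10.5 cells are called label 13 cells here without a cell type.

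**Figure D1:**
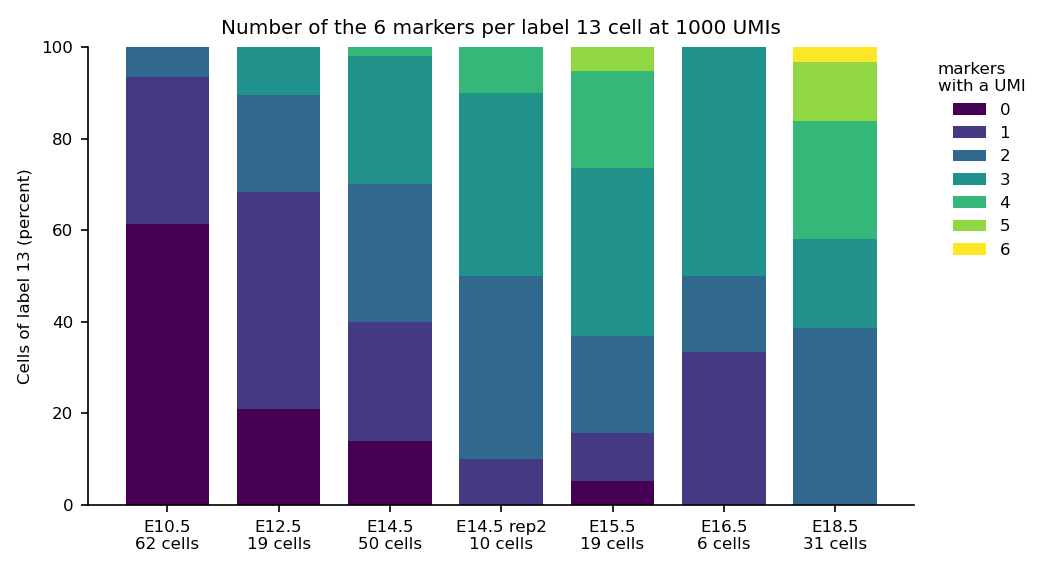
Percent of label 13 cells (y axis) that held 0 to 6 of the markers Reln, Trp73, Lhx1, Ndnf, Cacna2d2 and Car10 after thinning to 1000 UMIs per cell, by sample (x axis, with the number of cells). At E18.5 every one of 31 cells held at least 2 of them, and at E10.5 38 of 62 cells held none.

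Reln lies on chromosome 5 at 21884454 to 22344702 on the minus strand (GRCm38), Cacna2d2 on chromosome 9 at 107399612 to 107529343 on the plus strand, and Lhx1 on chromosome 11 at 84518284 to 84525535 on the minus strand. Their start regions are printed because of the 6 markers the first 2 had the lowest adjusted p between the later stages and E10.5, while Lhx1 was present throughout. Each run covers 250 bases before to 50 bases after the start in the RefSeq table for GRCm38.p6, 5′ to 3′ on the strand of the gene, with GC boxes (GGGCGG, searched on both strands) in capitals. The table held 5 of the 6 marker genes.
Reln, chr5:22344656-22344955: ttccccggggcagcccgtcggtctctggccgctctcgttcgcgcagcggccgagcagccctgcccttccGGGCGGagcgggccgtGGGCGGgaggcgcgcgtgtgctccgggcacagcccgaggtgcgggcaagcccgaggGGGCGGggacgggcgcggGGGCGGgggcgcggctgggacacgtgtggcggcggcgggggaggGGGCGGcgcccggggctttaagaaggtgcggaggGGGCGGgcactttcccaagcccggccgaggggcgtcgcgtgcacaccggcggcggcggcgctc
Cacna2d2, chr9:107399630-107399929: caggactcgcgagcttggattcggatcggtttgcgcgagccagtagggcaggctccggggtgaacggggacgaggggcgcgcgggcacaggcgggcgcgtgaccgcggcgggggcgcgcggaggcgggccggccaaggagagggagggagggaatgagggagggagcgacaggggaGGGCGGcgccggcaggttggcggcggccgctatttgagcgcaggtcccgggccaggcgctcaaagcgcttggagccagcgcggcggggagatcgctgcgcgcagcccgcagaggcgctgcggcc
Lhx1, chr11:84525485-84525784: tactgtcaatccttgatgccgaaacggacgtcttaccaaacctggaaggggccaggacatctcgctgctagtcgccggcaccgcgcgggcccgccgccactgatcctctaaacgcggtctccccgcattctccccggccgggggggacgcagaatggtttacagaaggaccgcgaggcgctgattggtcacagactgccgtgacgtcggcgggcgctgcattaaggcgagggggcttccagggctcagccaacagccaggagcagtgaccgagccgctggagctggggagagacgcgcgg
The Reln window was 80.7% G or C and held 6 GC boxes, the Cacna2d2 window was 75.7% G or C and held 1, and the Lhx1 window was 65.7% G or C and held none. The median over all promoters in the table was 52.7%, and 35.7% of 32851 promoters held at least 1 GC box on either strand. An E-box (CAGCTG), a homeodomain site (TAATTA), an EBF site and a TATA box (TATAAA) were searched on both strands as well, and none of these letters stood in the 3 windows. They occurred in 16.3%, 5.29%, 0.904% and 13.6% of all promoters.

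The 6 markers followed different courses. Reln had 763 CPM at E12.5, 1422 and 2046 CPM in the E14.5 samples, 2187 CPM at E15.5, 1801 CPM at E16.5 and 2983 CPM at E18.5, against 71.8 CPM at E10.5. All 6 later samples stood above E10.5, and the summed later level was 28.2 times that of E10.5 (1084 and 16 UMIs, interval 17.3 to 49.5). The rise was 4.62 ± 0.70 on the log2 scale (standard error) in edgeR's quasi-likelihood test, with a Benjamini-Hochberg adjusted p of 0.000335. Cacna2d2 had 660, 767, 1132, 866, 1351 and 845 CPM in the later samples in stage order, against 85.3 CPM at E10.5, again without overlap, and rose by 3.34 ± 0.54 (adjusted p = 0.000727). Restricting every sample to cells with a UMI of Reln, which chooses cells by the gene measured, Reln still differed by 2.77 (adjusted p = 0.028) and Cacna2d2 by 3.65 (adjusted p = 0.00435).

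Ndnf and Car10 appeared later than Reln. Ndnf had no UMI at E12.5, 160 and 283 CPM at E14.5, 735 CPM at E15.5, 720 CPM at E16.5 and 1828 CPM at E18.5, against 4.49 CPM, a single UMI, at E10.5. E12.5 thus lay with E10.5 and the later samples above both. The ratio of the later sum to E10.5 was 172 (30.7 to 6810), and the difference passed the test (log2 6.83 ± 1.73, adjusted p = 0.0264) but not without E16.5 (adjusted p = 0.0522). Car10 had no UMI at E12.5 either, 20.9 and 87.1 CPM at E14.5, 168 CPM at E15.5, 248 CPM at E16.5 and 426 CPM at E18.5, against none at E10.5, where 3 UMIs would be 13.5 CPM. It was at least 13.6-fold higher in the later sum, with an adjusted p of 0.0459. Leaving out any of E15.5, E16.5, E18.5 and the second E14.5 sample gave adjusted p-values of 0.0591 to 0.0816. At E12.5, 3 UMIs would be 61.9 CPM, so low levels of either gene were not detectable there.

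Lhx1 and Trp73 were present from the start. Lhx1 had 433, 523, 805, 558, 720 and 406 CPM in the later samples, against 408 CPM at E10.5, and did not pass the test (log2 0.37 ± 0.42, adjusted p = 0.816). Trp73 had 124, 237, 457, 149, 158 and 131 CPM, against 80.8 CPM (log2 1.21 ± 0.61, adjusted p = 0.397). Lhx5, the close relative of Lhx1 and no member of the marker list, had 454, 537, 588, 568, 518 and 399 CPM, against 314 CPM (log2 0.60, adjusted p = 0.596). The E10.5 levels of these transcription factors thus lay at or just under the later range, while Reln and Cacna2d2 lay far below it.

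**Figure D2:**
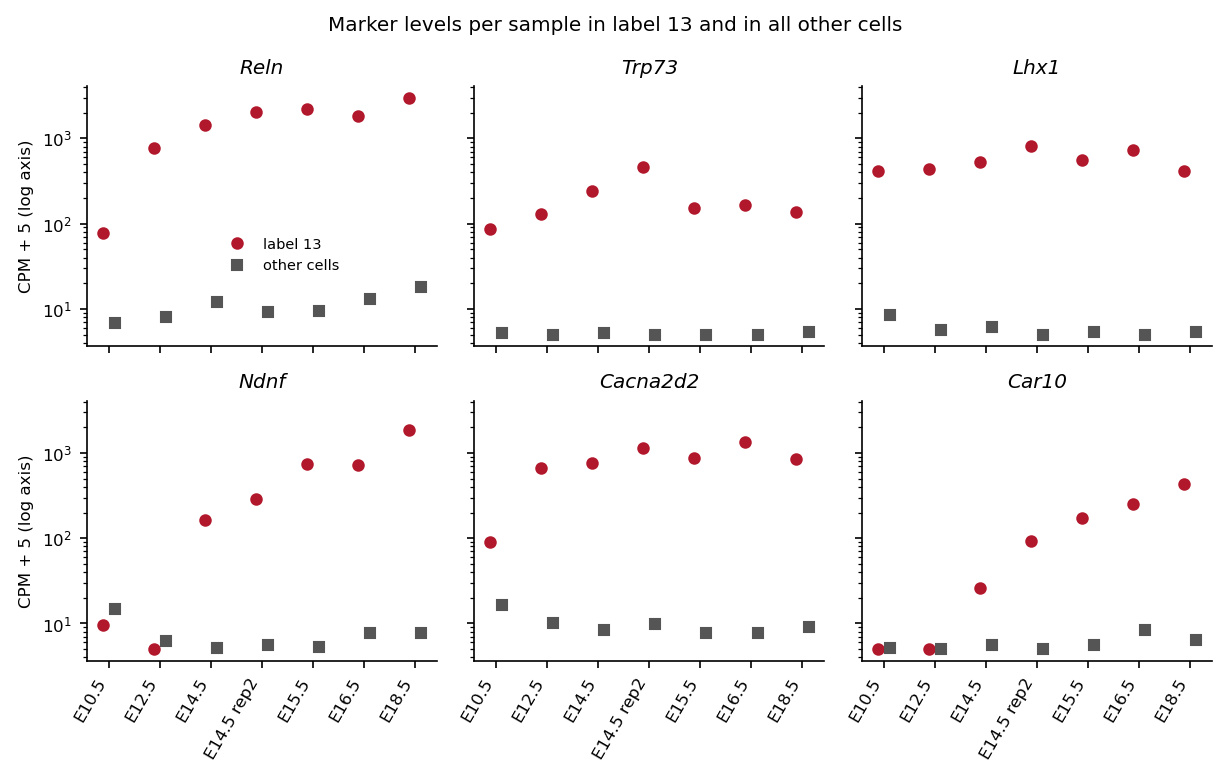
Level of the 6 markers (CPM + 5, log axis) in label 13 cells (red circles) and all other cells (grey squares) of each sample, by stage. Reln and Cacna2d2 lay at 660 CPM or more in label 13 in the later samples and at 71.8 and 85.3 CPM at E10.5, while Lhx1 stayed between 406 and 805 CPM and Ndnf and Car10 were highest at E18.5.

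The 66 cells of E10.5 were not alike. A UMI of Lhx1, Lhx5 or Trp73 was found in 44 of them (66.7%, 54.0 to 77.8), against 96 of 1106 other E10.5 cells (8.68%). Later label 13 cells had one in 16 of 23 at E12.5, 42 of 54 and 10 of 10 in the E14.5 samples, 15 of 25 at E15.5 and all 6 at E16.5. E18.5 had 30 of 36, while at most 0.252% of other later cells had such a UMI. The 44 cells with one and the 22 without shared the basic helix-loop-helix factor Nhlh2 (809 and 794 CPM), Ebf2 (281 and 236 CPM), the cortical factor Tbr1 (450 and 608 CPM), the neuronal tubulin Tubb3 (2470 and 2740 CPM) and a low Reln level (70.3 and 74.4 CPM). They differed in Cdkn1a, an inhibitor of cyclin-dependent kinases (1260 and 149 CPM), Nhlh1 (485 and 74.4 CPM) and Meis2 (112 and 633 CPM). Higher in the 44 cells were also Ccnd1 (527 and 211 CPM), Cdkn1c (2230 and 1090 CPM), Vim (1030 and 583 CPM) and Hes6 (682 and 285 CPM). Neurog2 had 162 CPM in the 44 cells and no UMI in the 22, while Dcx had 598 and 893 CPM. Zic4 had 120 CPM in the 44 cells and no UMI in the 22, and neurofilament light chain Nefl had 70.3 and 397 CPM. Both sets lacked any UMI of the GABA-synthesizing enzymes Gad1 and Gad2. The 2 libraries of E10.5 had 63.9 and 90.5 CPM of Reln, so the low level stood in each, but 1140 and 181 CPM of Cdkn1a.

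Reln also varied between cells of 1 later sample. The median number of Reln UMIs per cell was 1 for E12.5, 3 and 9.5 for the E14.5 samples, 6 for E15.5, 14.5 for E16.5 and 8 for E18.5, and the highest cell, at E18.5, had 56. Cell depth was highest at E16.5 as well, with a median of 7567 UMIs per label 13 cell, against 1841 at E12.5.

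Beyond the markers, label 13 was led by transcription factors and by a non-coding RNA. With levels averaged as the median over the 7 samples of log2((CPM in label 13 + 5)/(CPM in other cells + 5)), Reln led with 7.10, followed by Lhx5 (6.68), Cacna2d2 (6.54), Lhx1 (6.44), Ndnf (5.70), the long non-coding host gene Snhg11 (5.63), Nhlh2 (5.35), Trp73 (4.94), Cdkn1a (4.91) and the transcription factor Ebf3 (4.84). In all, 118 genes were 4-fold or more above the other cells by this measure. Over all cells Snhg11 had 1280 CPM in label 13 against 157 CPM in label 8, and Nhlh2 had 1770 CPM against 174 CPM in label 0. Lhx5 had 446 CPM against 112 CPM in label 14, while Cdkn1a had 491 CPM in label 13, below 686 CPM in label 16. The calcium-binding protein Calb2 (calretinin) had 315 CPM against 166 CPM in label 9, and the vesicular glutamate transporter Slc17a6 had 398 CPM against 255 CPM in label 0. Gad1 had 6.60 CPM in label 13 against 292 CPM in label 8.

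Genes of the cortical hem were present in part. The 13 hem genes summed to 433, 1210, 914, 977, 900 and 254 CPM in the later samples in stage order, against 772 CPM at E10.5, and Wnt3a, Bmp4 and Bmp6 had no UMI in label 13. Most of this sum came from 1 gene, Rspo3, a secreted Wnt co-activator made in the cortical hem. Over all cells Rspo3 had 616 CPM in label 13, below 1350 CPM in label 14, and 271 CPM in label 11 and 220 CPM in label 2. Emx2, a dorsal cortical homeobox factor, had 644 CPM in label 13 and 473 CPM in label 14, and Zic1 had 240 CPM in label 13, with 3 labels above it. The Zic1 and Zic4 genes overlap in a short stretch on opposite strands, where reads cannot be told apart without a known strand setting.

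**Figure D3:**
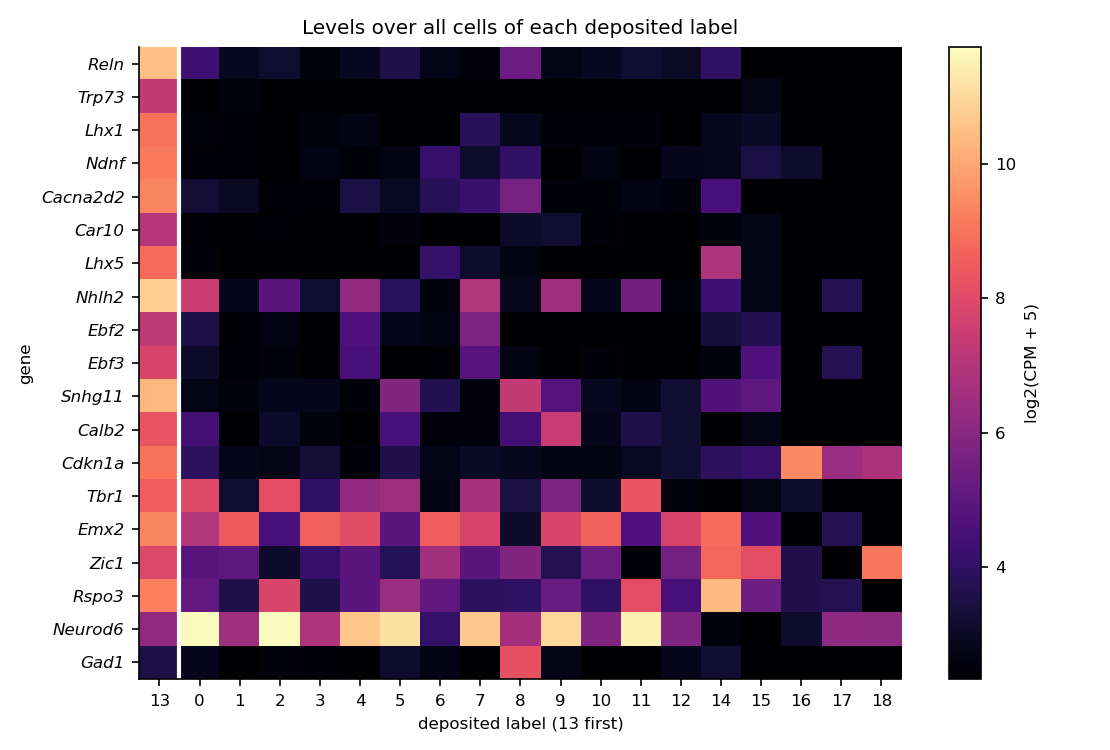
Level of 19 genes (rows, log2(CPM + 5) as color) in each of the 19 deposited labels (columns), with label 13 first. The genes from Reln down to Calb2 are highest in label 13, where Reln has 1450 CPM, while Cdkn1a is highest in label 16. Neurod6 has 67.3 CPM in label 13 and 3440 CPM in label 2.

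Across 4289 genes with a mean of at least 50 CPM over labels, the labels most like label 13 were 0, 9 and 2, with Spearman's rho of 0.847, 0.846 and 0.844 as a description across genes, which are not independent. Against label 2, label 13 was lower in Neurod6 (67.3 and 3440 CPM), Neurod2 (67.3 and 1360 CPM), both differentiation factors of cortical excitatory neurons, and Sox5 (48.8 and 980 CPM). Dab1, the intracellular adaptor of the reelin signal, had 30.3 CPM in label 13 and 839 CPM in label 2. Against label 9 it was lower in the guidance molecule Sema3c (2.64 and 700 CPM) and its receptor Nrp1 (48.8 and 1580 CPM).

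Markers of other cell types were summed in label 13. Of the 8 mesenchyme and meninges markers 6 had no UMI, among them Col3a1, Dcn, Foxc1 and Pdgfra, and the sum was 0 to 22.5 CPM in the later samples and 4.49 CPM at E10.5. Of the microglia markers 4 of 5, of the choroid plexus markers 3 of 4 and of the endothelial and mural markers 3 of 6 had no UMI. The endothelial and mural sum reached 112 CPM at E15.5 and 96.2 CPM at E18.5, and came mostly from Rgs5 (102 and 82.5 CPM). Interneuron markers summed to 0 to 158 CPM, highest at E18.5, against 4.49 CPM at E10.5, with Dlx6 and Lhx6 at 0. Radial glia markers summed to 144 to 774 CPM in the later samples, against 1490 CPM at E10.5. Intermediate progenitor markers summed to 113 to 753 CPM, against 1520 CPM, and S phase genes to 225 to 609 CPM, against 772 CPM. Projection neuron markers summed to 289 to 2040 CPM, against 1050 CPM, with the highest sum at E12.5, where 15 of 23 cells held a UMI of Neurod2 or Neurod6, 13 of them with Reln, while 50.2% of other E12.5 cells held such a UMI.

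The first tested question was which genes set later label 13 cells apart from those of E10.5. Of 4505 genes tested, 135 passed an adjusted p of 0.05 (3.0%), 69 of them higher (1.53%) and 66 lower (1.47%) at the later stages. Pcp4, Nfix, Nxph3 and Clstn2 were among the genes that rose, and Ccnd1, Crabp2, Cdkn1c and Neurod1 among those that fell. The median log2 difference of all tested genes was 0.0491, and 603 genes had an unadjusted p under 0.05. Without E12.5, 254 genes passed (140 higher and 114 lower). DESeq2 called 60, of which 51 were higher and 9 lower. Its calls did not include Ndnf, Car10, Syn2, Eomes, Crabp2, Neurod1, Lhx2 or Lhx9.

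Pcp4, a small regulator of calmodulin, had 454, 676, 914, 1219, 1801 and 1553 CPM in the later samples and no UMI at E10.5, so that it was at least 83.0-fold higher (adjusted p = 1.9e-05). Nfix, a nuclear factor I transcription factor that acts late in forebrain development, had 577, 1052, 696, 1201, 878 and 1004 CPM, against 4.49 CPM at E10.5, a ratio of 219 (39.1 to 8650, adjusted p = 4.98e-06). Its E12.5 level came from libraries with 92.2 CPM (2 UMIs) and 970 CPM (26 UMIs), and the E15.5 level of Pcp4 from libraries with 477 and 2270 CPM. Other cells had a like difference in Nfix, 776 CPM at the later stages and 9.35 CPM at E10.5. The actin-binding protein Ablim1 had 124, 181, 566, 354, 608 and 474 CPM and no UMI at E10.5 (at least 26.6-fold, adjusted p = 0.000727). Dync1i1, a chain of the dynein motor in neurons, had 20.6, 105, 87.1, 298, 450 and 777 CPM and none at E10.5 (at least 25.7-fold, adjusted p = 0.0161). The later samples did not overlap with E10.5 in any of these 4 genes, as a description of called genes that were chosen by the size of their rise. Fat3, an atypical cadherin, was at least 12.5-fold higher (adjusted p = 0.00311) and the secreted protein Mia at least 11.1-fold higher (adjusted p = 0.0135), though Mia had no UMI at E12.5. The GABA-A receptor subunit Gabra2 had 20.6 to 302 CPM and no UMI at E10.5 (adjusted p = 0.0234, but 0.0816 without E18.5).

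Secreted and surface proteins known from Cajal-Retzius cells formed the list with the most risers. The list was chosen for this cell type with earlier results of these data known, so it does not speak for secreted proteins as a class. Of 12 genes, 10 were tested, 5 rose and none fell, where 1.53% of all tested genes rose. The list's median log2 difference was 4.3, or 3.72 with the 2 genes that had no UMI at E10.5 at their lower bound, against 0.0491 for all genes. Reln and Ndnf are also markers of the label. Nxph3, a secreted ligand of neurexins, had 61.9, 146, 261, 233, 113 and 96.2 CPM and no UMI at E10.5 (at least 11.1-fold, adjusted p = 0.00332). Clstn2, a synaptic calsyntenin, had 103, 279, 414, 298, 383 and 598 CPM, against 8.98 CPM (adjusted p = 0.00235), and the matrix protein Edil3 had 87.1 to 289 CPM, against 8.98 CPM (adjusted p = 0.0135). Their later samples all stood above E10.5, again as a description of called genes.

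Among 16 Cajal-Retzius transcription factors, 13 were tested, 1 rose and 1 fell, with a median of 0.285. The orphan nuclear receptor Nr2f2 had 598, 739, 696, 642, 585 and 667 CPM, against 184 CPM at E10.5 (log2 1.74 ± 0.44, adjusted p = 0.0245), a narrow later range above E10.5. Its call was lost in 7 of 23 alternatives, among them no filter on low counts and at least 20 cells per sample. Eomes, the T-box factor of intermediate progenitors, fell to 351, 258, 131, 289, 22.5 and 55.0 CPM, against 691 CPM (adjusted p = 0.0427, but 0.0833 without the second E14.5 sample and 0.0558 without E16.5). Nhlh2 had 969 to 2399 CPM, against 803 CPM, and missed the threshold (log2 1.27, adjusted p = 0.16), as did Emx2 with 474 to 1001 CPM, against 341 CPM (log2 1.08, adjusted p = 0.239). None of the 5 Zic factors passed.

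Of 20 genes of the reelin signal 13 were tested, and Reln, the ligand, was the only one to pass, with a list median of 0.257. The receptor Lrp8 had 0 to 112 CPM in the later samples, against 53.9 CPM at E10.5 (adjusted p = 0.839), and the receptor Vldlr and the adaptor Dab1 were too low to be tested, with 0 to 82.5 CPM and 0 to 34.8 CPM, against 22.4 and 49.4 CPM.

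Neuronal maturation genes were mixed, where 1.53% of all tested genes rose and 1.47% fell. Of 19 synapse genes 12 were tested and 2 rose, with a median of 1.6. Among them the vesicle protein Syn2 had 0 to 399 CPM, against 4.49 CPM (adjusted p = 0.0275, but 0.0504 without the second E14.5 sample). Of 22 transmitter and channel genes 14 were tested and 2 rose, Cacna2d2 and its relative Cacna2d3 (74.5 to 315 CPM, against 4.49 CPM, adjusted p = 0.0135). All 21 pan-neuronal genes were tested: the microtubule protein Mapt rose (392 to 1089 CPM, against 202 CPM, adjusted p = 0.0439), 2 neurofilament genes fell and 18 did not pass, with a median of 0.0162. The call of Mapt was lost without the second E14.5 sample (adjusted p = 0.0591), without E15.5 (0.0747) and without E16.5 (0.0737). Nefm fell to 61.9, 13.9 and 65.3 CPM up to E14.5 and had no UMI later, against 287 CPM at E10.5 (adjusted p = 0.00309). Nefl had 1 UMI in all later cells, against 188 CPM (ratio 0.00991, 0.000245 to 0.0583, adjusted p = 0.00426). At E10.5, 45 of 64 UMIs of Nefm and 32 of 42 UMIs of Nefl were in the 22 cells without a UMI of Lhx1, Lhx5 or Trp73, and among cells that held one the Nefm difference missed the threshold (log2 −3.20, adjusted p = 0.203). In the GENCODE annotation a long Nefm transcript overlaps Nefl on the opposite strand, and without a known strand setting reads in the shared stretch cannot be told apart. None of 12 tested axon guidance genes and none of 7 tested apoptosis genes passed.

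Genes of progenitors and of the cell cycle were among those that fell, where 1.47% of all tested genes did. Cyclin D1, Ccnd1, had 2 UMIs in all later cells, 6.97 CPM in the larger E14.5 sample and 22.5 CPM at E16.5, against 413 CPM at E10.5 (ratio 0.00905, 0.00108 to 0.0336, adjusted p = 4.98e-06). It was found in 2 of 154 later cells and 15 of 66 E10.5 cells, and the highest of these held 35 of the 92 UMIs. The kinase inhibitor Cdkn1c had 144, 335, 174, 344, 225 and 144 CPM, against 1818 CPM at E10.5 (log2 −3.03 ± 0.37, adjusted p = 1.11e-05). Igfbp2, a binding protein of insulin-like growth factors, had 124, 76.7, 65.3, 83.8, 90.0 and 41.2 CPM, against 763 CPM (adjusted p = 8.93e-06). Later and E10.5 samples did not overlap in any of the 3, again as a description of called genes. Radial glia markers fell in 2 of 4 tested, nestin (Nes, 6.87 to 69.7 CPM, against 301 CPM, adjusted p = 0.00251) and vimentin (Vim, 102 to 321 CPM, against 866 CPM, adjusted p = 0.00235). The summed markers of radial glia, intermediate progenitors and S phase were each higher at E10.5 than in any later sample, as given above, and their part in these falls was not tested. None of 5 tested S phase genes, 2 G2 and M phase genes, 5 immediate early and heat shock genes, 3 hem genes and 1 subplate gene passed.

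Of 14 early-stage genes 8 were tested, 5 fell and none rose, with a median of −2.90, where 1.47% of all tested genes fell. Its members were listed as early-stage genes, so falls among them are no independent result. The retinoic acid-binding protein Crabp2 had 268, 125, 152, 27.9, 67.5 and 0 CPM, against 938 CPM (adjusted p = 0.00182, not called by DESeq2). Dlk1, an imprinted membrane protein, had no UMI in any later sample, against 202 CPM, and was at least 36.0-fold lower (adjusted p = 0.00309). Of 16 proneural and Notch genes 13 were tested, 5 fell and none rose, with a median of −2.59. Neurod1, a basic helix-loop-helix factor of young neurons, had 351, 223, 87.1, 65.2, 45.0 and 6.87 CPM, against 920 CPM (log2 −3.0 ± 0.60, adjusted p = 0.00419, not called by DESeq2). Hes6 had 22.5 to 146 CPM, against 539 CPM (adjusted p = 0.000955), and Neurog1 had no UMI later, against 135 CPM (at least 24.0-fold lower, adjusted p = 0.0234, but 0.0718 without the larger E14.5 sample). Without that sample the calls of Dll3 (adjusted p = 0.0346, and 0.0695 without it) and Mfng (0.0176, and 0.0588 without it) were lost too, and that of Dll3 also without E15.5 (0.0783) or E18.5 (0.0555). The 9 tested regional factors included 4 that fell, with a median of −2.28. Lhx2 was one of them, with an adjusted p of 0.0477 that came to between 0.0701 and 0.107 when E15.5, E16.5 or one of the E14.5 samples was left out, and Pou3f3 another (adjusted p = 0.0276, but 0.0591 without E15.5). Lhx9 had 18.6 to 227 CPM, against 471 CPM (adjusted p = 0.00773, not called by DESeq2), and Meis2 had 0 to 103 CPM, against 301 CPM (adjusted p = 0.0176). At E10.5, 51 UMIs of Meis2 were in the 22 cells without a UMI of Lhx1, Lhx5 or Trp73 and 16 in the other 44, which had 112 CPM. Outside that list Fezf2, a factor of deep-layer neurons, had 0 to 82.5 CPM, against 229 CPM (adjusted p = 0.0094), and the homeobox factor Uncx had 0 to 82.5 CPM, against 278 CPM (adjusted p = 0.00236).

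With only the cells that held a UMI of Lhx1, Lhx5 or Trp73, an alternative chosen after seeing the data, 162 genes passed (84 higher and 78 lower). Reln (log2 4.67, adjusted p = 0.000114), Cacna2d2 (3.22, adjusted p = 0.000358), Ndnf (adjusted p = 0.0179), Nfix, Pcp4, Ccnd1, Cdkn1c, Nes and Vim passed in that set too, while Car10 did not (adjusted p = 0.0527).

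**Figure D4:**
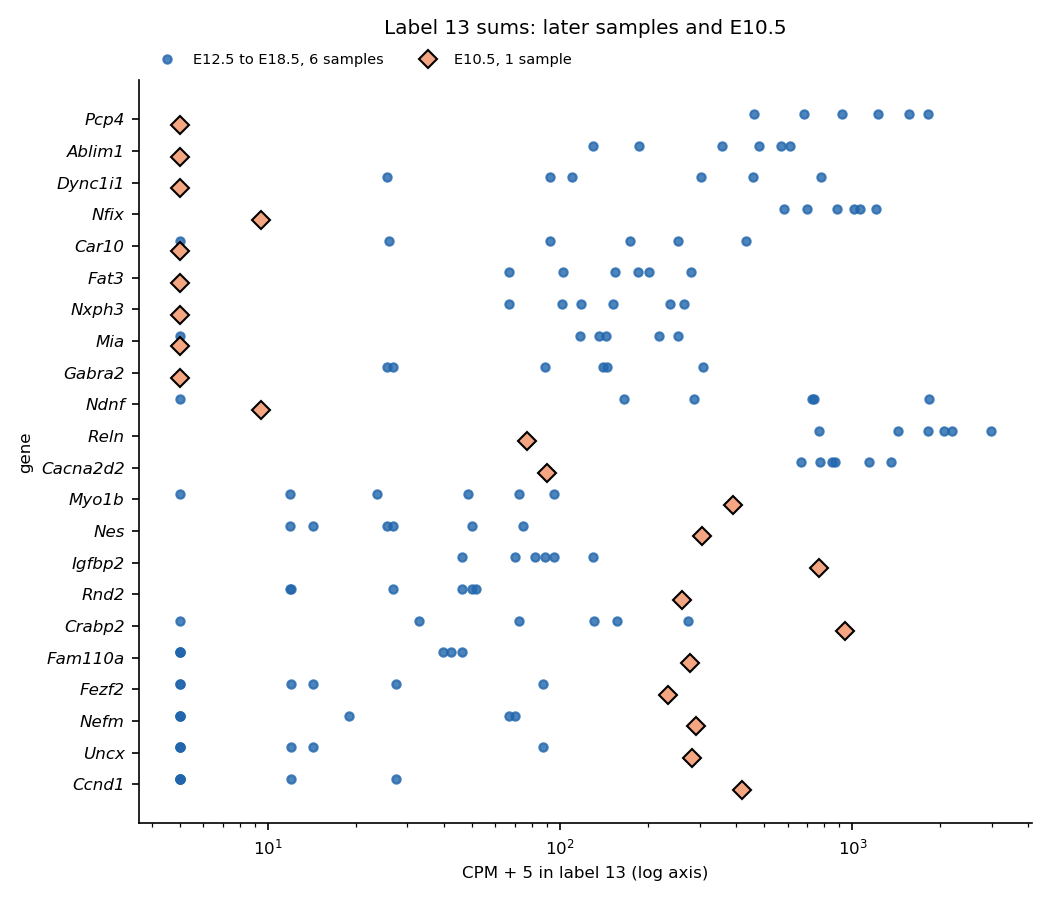
Level in label 13 (CPM + 5, log axis) of the 10 called genes with the largest rise, of Reln and Cacna2d2, and of the 10 with the largest fall. Dots are the 6 later samples and diamonds the E10.5 sample. Pcp4 lies at 454 to 1801 CPM in the later samples and at 0 CPM at E10.5, and Ccnd1 at 0 to 22.5 CPM and at 413 CPM.

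The second question was how label 13 changed after E10.5. A slope on embryonic day was fitted to the 6 later samples, and 53 of 2366 tested genes passed (2.24%), 39 rising (1.65%) and 14 falling (0.592%). The calls lean on E18.5: 9 genes passed without it, 31 without E15.5 and 23 without the larger E14.5 sample. Leaving out the cells with a UMI of Neurod2 or Neurod6, an alternative added after seeing the data, left 25. Rising genes were led by the chemokine Cxcl12, which had no UMI at E12.5, 27.9 and 0 CPM at E14.5, 168 CPM at E15.5, 90.0 CPM at E16.5 and 1299 CPM at E18.5 (log2 1.33 ± 0.13 per day, adjusted p = 1.18e-06). The 2 libraries of E18.5 had 1270 and 1400 CPM of it, and 26 of 36 cells at that stage held a UMI, 23 of them together with Ndnf. Over all cells Cxcl12 had 284 CPM in label 13, 265 CPM in label 15 and 242 CPM in label 16. Mesenchyme markers summed to 20.6 CPM in label 13 at E18.5 and 6 of 8 were at 0 throughout, while the mural gene Rgs5 had 82.5 CPM there. The part of other cell types in the Cxcl12 rise was not tested.

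Snhg11 had 165, 369, 305, 1164, 1080 and 4791 CPM in stage order (0.88 ± 0.08 per day, adjusted p = 6.35e-07), and 34 of 36 cells at E18.5 held it. Angpt1, a secreted ligand of the endothelial receptor Tek, had 0, 34.8, 0, 214, 315 and 1251 CPM (1.21 per day, adjusted p = 1.81e-06, but 0.162 without E18.5). Ramp1, a partner of the calcitonin-receptor-like receptor, had 0, 0, 21.8, 65.2, 135 and 433 CPM (1.20 per day, adjusted p = 9.61e-05). These 4 genes were highest at E18.5. Of the markers, Ndnf (0.85 per day, adjusted p = 6.87e-05), Car10 (0.81 per day, adjusted p = 0.0018) and Reln (0.30 ± 0.07 per day, adjusted p = 0.0274) rose. The Reln slope missed the threshold when E12.5 (adjusted p = 0.309), the larger E14.5 sample (0.0908) or E18.5 (0.256) was left out. Lhx1 (−0.01 per day, adjusted p = 0.986), Trp73 (−0.11 per day, adjusted p = 0.747) and Cacna2d2 (0.10 per day, adjusted p = 0.614) did not pass. In the Cajal-Retzius list of secreted and surface genes 4 of 8 tested rose (median 0.319 per day, against 0.000469 for all genes), where 1.65% of all tested genes rose. They were Cxcl12, Clstn2 and the markers Ndnf and Reln, and the list was chosen with earlier results of these data known. The Clstn2 slope missed the threshold without E12.5 (adjusted p = 0.282), the larger E14.5 sample (0.0962), E15.5 (0.0509) or E18.5 (0.406). Of the Cajal-Retzius transcription factors none of 12 tested passed.

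Of 9 tested transmitter and channel genes 1 rose, and none of 3 tested axon guidance genes did, where 1.65% of all tested genes rose. The neural adhesion molecule Lsamp had 0, 105, 152, 298, 563 and 680 CPM (0.72 per day, adjusted p = 0.00105), and Kcnip2, a partner of potassium channels, had 0, 20.9, 0, 102, 158 and 247 CPM (0.85 per day, adjusted p = 0.0176). The immediate early gene Fos had 0, 202, 65.3, 93.1, 0 and 770 CPM (0.72 per day, adjusted p = 0.00924, not called by DESeq2). The interneuron sum was also highest at E18.5 (158 CPM). The median mitochondrial share of label 13 cells was 3.31, 2.03, 1.98, 5.69, 7.36 and 5.89% in the same order, and 6 genes passed with only cells of at most 5%. The part of either in these slopes was not tested.

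Among the 14 falling genes, Nnat, an imprinted membrane proteolipid, had 13095, 11005, 11949, 7893, 7090 and 2041 CPM (−0.42 ± 0.09 per day, adjusted p = 0.0133), and its slope missed the threshold without E15.5 (0.0524) or E18.5 (0.504). The surface glycoprotein Cd24a had 1402, 572, 979, 307, 315 and 192 CPM (−0.48 per day, adjusted p = 0.0018). Neurod1 (−0.81 per day, adjusted p = 0.00755), Crabp2 (−0.86 per day, adjusted p = 0.0381) and the kinase Cdk4 (−0.42 per day, adjusted p = 0.0146) also fell. Their calls were lost without E18.5 for Neurod1 and Cdk4 (adjusted p = 0.256 and 0.169) and without E12.5 for Crabp2 (0.162). Cdkn1a had 309, 795, 457, 251, 22.5 and 20.6 CPM (−0.70 per day, adjusted p = 0.0429), and its call was lost without E15.5 (0.0845), E16.5 (0.0892), the larger E14.5 sample (0.103) or E18.5 (0.622).

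**Figure D5:**
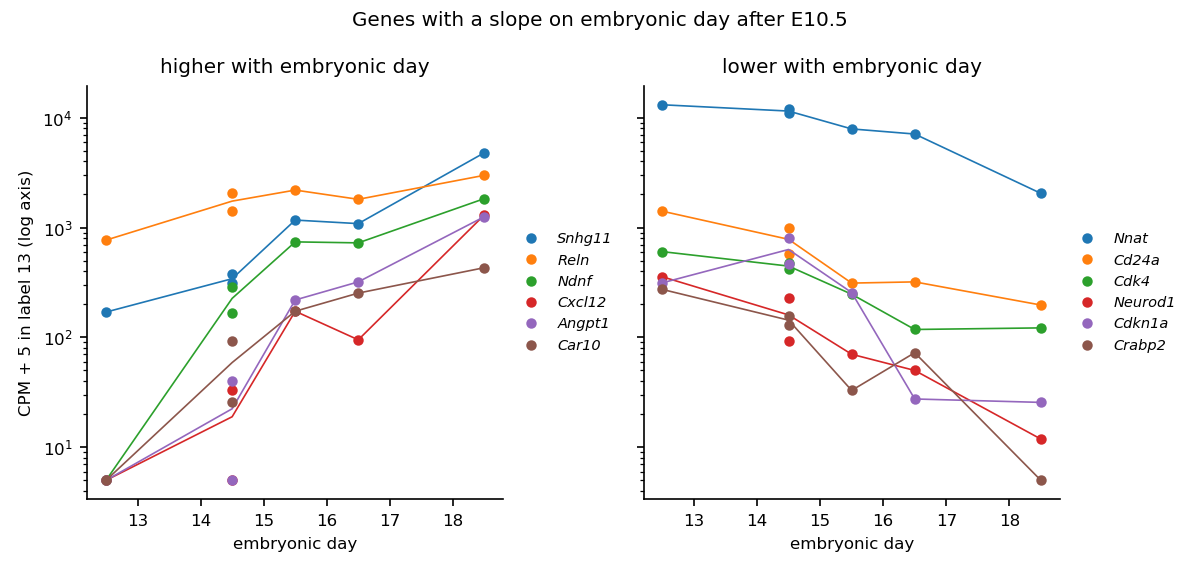
Level in label 13 (CPM + 5, log axis) against embryonic day for 6 genes that rose after E10.5 (left) and 6 that fell (right). Points are samples and lines join the stage means. Cxcl12 and Angpt1 stand above 1200 CPM at E18.5 only, while Nnat falls to 2041 CPM there.

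The third question was which of the differences from E10.5 were not shared by the other cells of the same samples. In a fit with the sample as a block, the difference between later stages and E10.5 was unlike that of all other cells for 345 of 4505 genes (7.66%), with 70 relatively higher in label 13 (1.55%) and 275 relatively lower (6.1%). Without E12.5 it was 536 (154 and 382). The other cells also changed in make-up: at least 50.2% of them held a UMI of Neurod2 or Neurod6 in each later sample, against 0.452% at E10.5. Set against the other neurons alone, labels 0, 2, 5, 8, 9 and 11, 82 genes passed, 18 higher and 64 lower. The number of such neurons at E10.5 is not given here, and few other E10.5 cells held Neurod2 or Neurod6. A call lost in this fit therefore does not show that other neurons share a change.

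Genes relatively higher in label 13 included 4 of the 6 markers, where 1.55% of all tested genes were relatively higher. The markers are genes of the cell type proposed for this label, so their count is no independent result. Cacna2d2 had 878 CPM in the later label 13 sum and 85.3 CPM at E10.5, where other cells had 3.94 and 11.3 CPM (difference 4.89 ± 0.55, adjusted p = 1.47e-05, and 6.19 with adjusted p = 0.00271 against other neurons). Lhx5 had 501 and 314 CPM in label 13, where other cells had 0.0896 and 30.8 CPM (8.33 ± 0.74, adjusted p = 4.64e-07), but its call was lost against other neurons (5.29, adjusted p = 0.379). Lhx1 had 531 and 408 CPM, where other cells had 0.583 and 3.40 CPM (2.87, adjusted p = 0.014). This call was lost against other neurons (5.13, adjusted p = 0.103), and the difference turned to −2.97 with only cells of at most 5% mitochondrial UMIs. Reln had 2030 and 71.8 CPM, where other cells had 6.32 and 1.91 CPM (2.93 ± 0.73, adjusted p = 0.0137), and it turned to −1.56 (adjusted p = 0.967) against other neurons. Lhx5 and Lhx1 did not pass the test within label 13, and their levels in other cells were lower at the later stages.

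Lower in label 13 in this sense were many neuronal genes. Of 21 pan-neuronal genes 19 passed in that direction, where 6.1% of all tested genes did. The list median was −2.89 against −0.0326 for all genes, beside the gain in neurons among the other cells. Within label 13 the same list had a median of 0.0162 between the later stages and E10.5, and 18 of the 21 did not pass. All 6 tested projection neuron genes passed as well. Neurod1 had 118 CPM later and 920 CPM at E10.5 in label 13, where other cells had 388 and 29.3 CPM (−6.75 ± 0.81, adjusted p = 1.94e-05), and it passed against other neurons too (−4.48, adjusted p = 9.46e-05). Against other neurons Neurod2 (−6.98, adjusted p = 0.00284) and Neurod6 (−12.68, adjusted p = 0.0166) passed as well, but the projection neuron factor Tbr1 (−1.01, adjusted p = 0.655) and the pan-neuronal adhesion molecule Cntn2 (−1.92, adjusted p = 0.212) did not.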

How the data were processed

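Per the labels' protocols, cells of dissociated CD-1 mouse dorsal forebrain were profiled by version 3.1 of the Drop-seq protocol. Drop-Seq tools 3.1, the mm10 build and Seurat 3.1.5 were used, per the submitters' processing notes. The deposited values were counts made by the authors, whole numbers of UMIs for 21862 genes in 10261 cells, with a cluster number and a library for each cell. The aligner, annotation and strand setting are not given in the sources used here. The lowest number of genes in a cell was 501 and the highest mitochondrial share 9.996%. All 12 libraries were assigned to the 7 samples by name, 1 of them (an E14.5 library) by inference, and 0 columns of per-sample values had no sample.

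Raw counts of label 13 cells, and of all other cells, were summed per sample with at least 5 label 13 cells. CPM are counts scaled to 1e6 UMIs of a sum's plain total. Tests used edgeR 4.0.16 in R 4.3.3 (filterByExpr, TMM, quasi-likelihood, two-sided), adjusted over all tested genes, threshold 0.05. E10.5, a lone sample, is assumed to vary like the later ones. A standard error is the log2 value over the root of F. For a gene without a UMI in a group, the fold is a bound against 3 counts over that group, since its fitted log2 depends on a prior count. Ratios carry exact 95% intervals for counting error only. Scripts were tested on simulated data with a set spread between samples. Changes of log2 1.5 were recovered in 25% of cases for later stages against E10.5. The share was 4.26% for the slope, as a change across the later stages, and 10.3% for the difference from other cells. Changes of log2 3 were recovered in 89%, 72.9% and 74.7%. A gene that did not pass is therefore not shown to be unchanged. Results of some genes are not reported here.

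Named genes were the 25 leading genes against other cells (pseudocount 5 CPM, a UMI in at least 10% of cells), the 10 highest and 10 lowest called genes per comparison with a mean of at least 50 CPM, up to 4 called members per direction of 27 lists (307 genes), and the 6 markers. Mitochondrial, ribosomal, haemoglobin, sex-linked and unnamed genes were left out of ranks. Genes of the E10.5 split and other labels were chosen after their values were seen. Members and lists were chosen with earlier results of these data known. Alternatives were DESeq2 1.42.0 and its size factors, no filter, higher cell minimums, cells with at least 1000 UMIs or at most 5% mitochondrial UMIs, Scrublet calls left out (expected rate 5%, 95 calls, 0.926%), thinned sums, other codings of stage, library subsets, other neurons as the comparison and each sample left out. Gene positions are from GENCODE M21, promoters from RefSeq.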

Additional observations from a re-analysis of the deposited data

Results flagged for a closer look

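For 20 genes the difference between later stages and E10.5 in label 13 was unlike that in the other cells of the same samples, by a test of the difference itself (edgeR, with the sample as a block, Benjamini-Hochberg adjustment). They are the 10 highest and 10 lowest log2 differences among called genes, and where a group had no UMI the size depends on the prior count. Against other neurons alone, all 10 of the relatively higher genes lost their call (adjusted p of 0.149 or more), and of the lower ones Cntn2 (0.212) and Ncam2 (0.872) did. As said above, a call lost there does not show that other neurons share a change.

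Relatively higher in label 13 was Smoc2, a secreted calcium-binding matrix protein (14.39, adjusted p = 0.0056), with 114 CPM later and no UMI at E10.5 in label 13, where other cells had 0.224 and 5.10 CPM. Fibin followed (12.90, adjusted p = 0.0309, but 0.127 without E15.5), then Cxcl12 (12.30, adjusted p = 0.0329) with 402 CPM later and no UMI at E10.5, where other cells had 17.4 and 37.4 CPM. The adjusted p of Cxcl12 was 0.0928 without E15.5, 0.0725 without E16.5 and 0.0676 without E18.5. Cit, a kinase of cell division, differed by 12.05 and Ablim1 by 11.98. Ndnf differed by 9.92 (adjusted p = 2.87e-05), with 772 and 4.49 CPM in label 13, where other cells had 1.03 and 9.99 CPM, and Lhx5 by 8.33. The growth factor Igf2 differed by 6.72, and was lower later in the other cells (20.7 and 223 CPM). Angpt1 differed by 6.62 (adjusted p = 0.0343, and 0.0967 without E15.5, 0.0911 without E16.5, 0.0938 without E18.5) and the junction protein Plekha7 by 6.30.

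Relatively lower was Neurod6 (−13.12, adjusted p = 0.00276), with 84.1 CPM later and 26.9 CPM at E10.5 in label 13, where other cells had 1710 and 0 CPM. Neurod2 (−8.95), Neurod1 (−6.75), the neuronal factor Myt1l (−6.59), the synaptotagmin Syt4 (−6.39), Nefm (−6.37) and Enc1 (−6.02) followed. The guidance receptor Epha5 (−5.85) and the adhesion molecules Cntn2 (−5.78) and Ncam2 (−5.70) completed them. Myt1l had 415 and 269 CPM in label 13, where other cells had 405 and 2.76 CPM.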

How the results depend on the processing

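Of the named genes called, 6 of 42 kept their call under every alternative run for later stages against E10.5 (Cacna2d2, Ccnd1, Cdkn1c, Nfix, Pcp4 and Reln), 9 of 25 for the slope and 9 of 60 for the difference from other cells. The number of genes called for later stages against E10.5 (135) was 113 to 254 when 1 sample was left out, 60 with DESeq2, 239 without a filter on low counts, 78 with at least 20 cells per sample, 35 with at most 5% mitochondrial UMIs, 30 with cells that held Reln, 20 with sums thinned to the smallest, 19 with library suffix 1 only, 231 without E12.5 and E16.5 (chosen after seeing the data) and 391 for a slope over all samples (218 higher and 173 lower). The slope count (53) was 9 to 71 with 1 sample left out, 122 without a filter, 6 with at most 5% mitochondrial UMIs, 11 with suffix 1 and 25 without cells that held Neurod2 or Neurod6. The count for the difference (345) was 230 to 536 with 1 sample left out, 604 without a filter, 212 with at least 20 cells, 76 with at most 5% mitochondrial UMIs, 111 with thinned sums, 114 with suffix 1 and 82 against other neurons. Fewer cells or UMIs entered the smaller sets, and beyond that the cause was not tested.

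No call reversed in the first 2 comparisons. In the third, Lhx1 reversed to −2.97 with at most 5% mitochondrial UMIs, Neurod2 to 1.32 with thinned sums, and Emx2 to −0.20 and Reln to −1.56 against other neurons, and the cause was not tested. The share of label 13 was 2.47% with suffix 1, the genes at 4-fold were 55 with a pseudocount of 20 CPM, and 60% of cells held at least 2 markers at 2000 UMIs.

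Leaving out E10.5 was not run for comparisons that need it. Between stages, no paired analysis was possible because only E14.5 had a second sample, and the third comparison already pairs label 13 with the other cells of each sample. Depth limits what can be seen at E16.5, with 6 cells and 44427 UMIs, where 3 UMIs are 67.5 CPM.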
